A study of Mus musculus with 9 samples.

Results

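The NF-kB genes described here were 5 subunits (Rela, Rel, Nfkb1, Relb and Nfkb2), 3 inhibitors (Nfkbia, Nfkbib and Nfkbie) and 2 regulators (Tnfaip3 and Map3k8). They were taken by name, with all transcripts summed to the gene, and all 10 were found among 53458 annotated genes. On GRCm38 they lie at chr19:5637483-5648130 (Rela), chr11:23736847-23770970 (Rel), chr3:135584655-135691547 (Nfkb1), chr7:19606217-19629438 (Relb), chr19:46304320-46312385 (Nfkb2), chr12:55489410-55492647 (Nfkbia), chr7:28758251-28767512 (Nfkbib), chr17:45555703-45563169 (Nfkbie), chr10:19000910-19015657 (Tnfaip3) and chr18:4331327-4353015 (Map3k8). All 10 also passed the filter on low counts, which kept 24133 genes. RNA came from conventional type 1 dendritic cells (cDC1), which present captured antigen to cytotoxic T cells, of lymph nodes next to the mouse pancreas. The 9 libraries were labelled by neoplasia stage: 3 Healthy, 3 PanIN (short for pancreatic intraepithelial neoplasia, lesions that precede carcinoma) and 3 Tumor. The series title names KPC, a genetic mouse model of pancreatic cancer. The labels give no allele, Cre driver, strain, age or sort gate for any group, nor whether the Healthy mice carried the KPC alleles. Nor do they say if a library is 1 animal or a pool, so a p-value reflects the scatter among these libraries alone, and that scatter may be technical. In bulk RNA such as this, fewer cells of a type and less RNA per cell cannot be told apart.

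NF-kB proteins act as pairs of subunits that are held in the cytoplasm until a signal frees them. In the canonical pathway, Toll-like, interleukin-1 and TNF receptors activate the IKK complex, which marks the inhibitor proteins of the IkB family for destruction and so frees pairs of Rela, Rel and the processed product of Nfkb1. In the non-canonical pathway, CD40, the lymphotoxin beta receptor and RANK stabilise the kinase encoded by Map3k14, which leads to processing of the Nfkb2 precursor and to pairs of Relb with the Nfkb2 product. Several genes of the family, among them Nfkbia, Nfkb2 and Tnfaip3, are themselves switched on by NF-kB. In dendritic cells the pathway is known for its part in maturation, the switch from capturing to presenting antigen, and Relb is a long-known gene of mature dendritic cells.

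Promoter sequences are shown first because kB elements, the DNA sites NF-kB binds, stand in the promoters of several of these genes. RefSeq windows of 300 bases (250 before to 50 after the transcript start, GRCm38.p6) were matched by symbol for 7 of the 10 genes: Rela, Rel, Nfkb2, Nfkbia, Nfkbib, Nfkbie and Tnfaip3. The kB consensus, a degenerate motif of NF-kB, was searched on both strands. It was found in the windows of 5 of these 7 genes (Rel, Nfkb2, Nfkbia, Nfkbie and Tnfaip3), where 5.14% of the 27025 genes with a window hold it. No match was found in the Rela and Nfkbib windows. A match describes the letters of the window and says nothing of binding in these cells. Sequences read 5′ to 3′ on the strand of the gene, with the matched bases in capitals. The bases before the start are given for the inhibitors Nfkbia and Nfkbie and the subunit Rel. For Tnfaip3 and Nfkb2, stretches of 30 bases round each match are given, some of which run across or past an annotated start.
Nfkbia (chr12:55492648-55492897): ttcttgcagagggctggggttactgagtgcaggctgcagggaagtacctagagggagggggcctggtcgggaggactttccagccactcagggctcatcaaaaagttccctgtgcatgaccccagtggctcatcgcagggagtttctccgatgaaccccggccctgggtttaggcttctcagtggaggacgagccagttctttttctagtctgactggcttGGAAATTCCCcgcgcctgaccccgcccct
Nfkbie (chr17:45555450-45555699): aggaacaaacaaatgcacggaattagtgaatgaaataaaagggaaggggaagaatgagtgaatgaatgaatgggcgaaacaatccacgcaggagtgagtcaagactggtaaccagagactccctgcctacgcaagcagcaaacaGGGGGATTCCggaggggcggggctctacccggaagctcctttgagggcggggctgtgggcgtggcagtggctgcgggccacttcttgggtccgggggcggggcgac
Rel (chr11:23770971-23771219): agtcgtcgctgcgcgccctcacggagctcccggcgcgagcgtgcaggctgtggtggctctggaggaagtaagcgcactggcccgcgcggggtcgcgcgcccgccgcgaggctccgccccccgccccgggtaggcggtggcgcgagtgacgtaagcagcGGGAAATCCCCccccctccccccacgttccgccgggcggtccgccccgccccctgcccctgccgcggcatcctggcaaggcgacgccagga
Tnfaip3 (chr10:19015516-19015545): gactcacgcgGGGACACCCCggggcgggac
Tnfaip3 (chr10:19015403-19015432): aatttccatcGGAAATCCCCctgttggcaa
Nfkb2 (chr19:46304688-46304717): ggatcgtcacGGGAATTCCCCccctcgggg
Nfkb2 (chr19:46304716-46304745): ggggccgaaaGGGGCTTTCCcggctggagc
Nfkb2 (chr19:46305449-46305478): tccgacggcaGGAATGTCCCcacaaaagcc
Nfkb2 (chr19:46305695-46305724): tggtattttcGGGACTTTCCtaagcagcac
The Nfkbia match lies 29 to 20 bases before the start and the Nfkbie match 106 to 97 bases before it. In Rel, 2 overlapping matches cover the bases from 92 to 82 before the start. At the Tnfaip3 start at chr10:19015410, 1 match lies 125 to 116 bases before the start and another 12 to 3 bases before it. The Tnfaip3 window at chr10:19011963 holds no match. That is the annotated start of Tnfaip3-202, the transcript with the largest mean share of this gene. Nfkb2 has matches at several annotated starts, 1 of them 10 to 19 bases after a start.

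The cells carried the markers of their label. Xcr1, a chemokine receptor of cDC1, ranged from 249 to 1081 CPM (counts scaled to library size with TMM factors) and Irf8, a transcription factor they need, from 1025 to 3330 CPM over the 9 libraries. Depth ran from 32150281 to 68934430 estimated counts. The Healthy libraries stood apart from each other. Ccr7, the receptor that guides maturing dendritic cells to lymph nodes, was at 57.2 CPM in Healthy 2, at 419 CPM in Healthy 3 and at 1265 CPM in Healthy 1. Healthy 3 also had the largest share of 7SL RNA (1.78% of counts) and of mitochondrial ribosomal RNA (2.77%), where the next library held 0.76% and 1.26%. Because of this, results for the NF-kB genes are given below with and without these Healthy libraries.

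All 10 genes had a higher fitted level in Tumor than in Healthy, with a median log2 fold change of 0.75, where the median of all genes tested was -0.11. A positive value was found for 43.5% of all genes. In edgeR's quasi-likelihood test, 7 of the 10 reached an unadjusted p under 0.05 in the higher direction (Map3k8, Nfkbib, Rela, Nfkbie, Rel, Relb and Nfkb2), a result that 6.82% of all genes gave. In 4 of the 10 (Map3k8, Nfkbib, Rela and Nfkbie) all 3 Tumor libraries lay above all 3 Healthy libraries in CPM, against 9.02% of all genes. In TPM, Nfkbie did not keep this separation. None passed the adjusted threshold of 0.05, which 0.0249% of all genes passed (6 genes), and the smallest adjusted p among them (edgeR's quasi-likelihood test, Benjamini-Hochberg adjusted) was 0.168. DESeq2, run as an alternative, passed 3 of the 10 (Rela, Nfkbib and Map3k8), all higher. Of all 24133 genes it passed 583 as higher and 1024 as lower. The 7 became 2 without both Healthy 2 and Healthy 3, 4 without Healthy 3, Tumor 1 or Tumor 3 alone, and 9 without Healthy 1.

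All 10 genes also had a positive fitted difference in PanIN against Healthy, but smaller, with a median log2 fold change of 0.43 against -0.10 over all genes and 42.5% positive among all genes. Map3k8 was the 1 gene of the 10 with an unadjusted p under 0.05, where 4.82% of all genes reached this in the higher direction. It was also the 1 gene whose libraries did not overlap in CPM, where 7.4% of all genes had PanIN wholly above Healthy. The smallest adjusted p over all genes tested was 0.236, so 0.0% of genes passed in this comparison. The share of all genes at this level was not taken for the alternatives that follow. With Healthy 1 left out, where the median of all genes was -0.16, 8 of the 10 reached an unadjusted p under 0.05. On log2(TPM + 1), where that median was 0.11, 7 did. Without both Healthy 2 and Healthy 3 none did, and 6 of the 10 differences were negative, with Relb at -0.26, Nfkbib and Tnfaip3 at -0.12, Nfkbia at -0.10, Nfkb2 at -0.078 and Rela at -0.046. In Tumor against PanIN the median was 0.27 against -0.05 over all genes, 8 of the 10 values were positive, and 45.8% of all genes were positive. Nfkbib alone reached an unadjusted p under 0.05, against 2.02% of all genes in the higher direction. In CPM, Rela and Nfkbib had all 3 Tumor libraries above all 3 PanIN libraries, against 8.33% of all genes. In TPM this held for Nfkbib but not for Rela. No member passed the adjusted threshold, which 0.0124% of genes passed. In the test of any difference among the 3 stages, 4 of the 10 (Map3k8, Nfkbib, Rela and Nfkbie) had an unadjusted p under 0.05, against 13.4% of all genes, and none passed after adjustment, against 0.0207%.

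**Figure D1:**
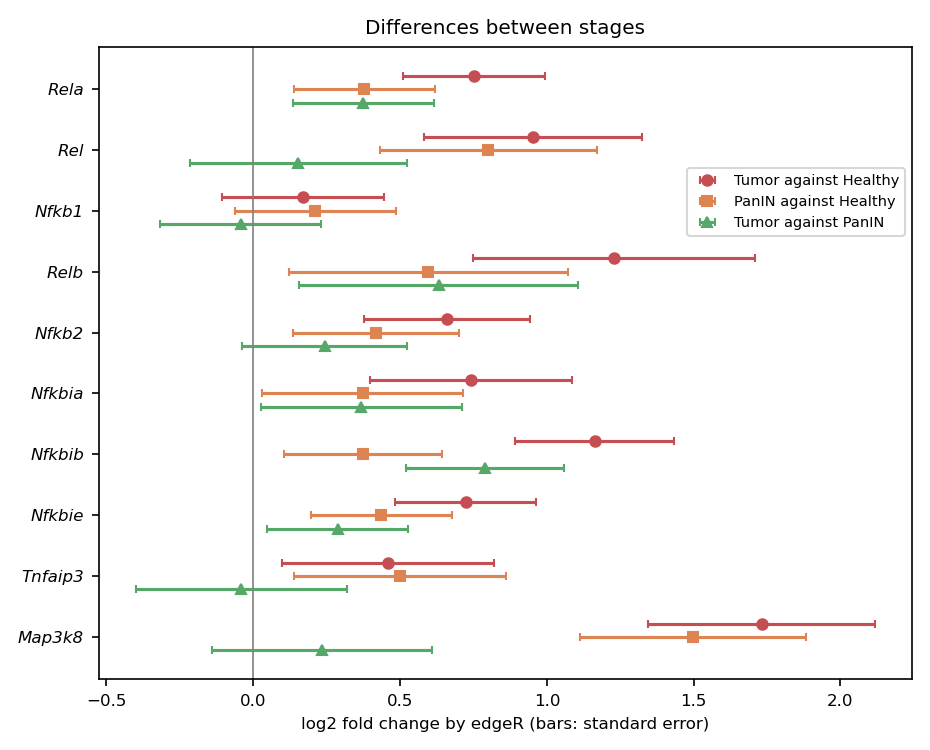
Log2 fold changes (x axis) of the 10 NF-kB genes (y axis) by edgeR, with bars of 1 standard error, for Tumor against Healthy (circles), PanIN against Healthy (squares) and Tumor against PanIN (triangles). Map3k8 lies farthest right at 1.73 for Tumor against Healthy, and Nfkb1 lies near 0 in each comparison.

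Per length, the 10 genes differed widely in level. Nfkbia, the inhibitor that NF-kB restores after each signal, was highest at each stage, with 137 ± 57.9 TPM in Healthy, 212 ± 37.2 TPM in PanIN and 224 ± 80.9 TPM in Tumor (SD, n = 3 each here and for the other levels). Relb was second at each stage, with 66.5 ± 54.7 TPM in Healthy, 120.0 ± 27.8 TPM in PanIN and 142 ± 44.9 TPM in Tumor. In Healthy, the intervals of 1 SD of Nfkbia and Relb overlapped, but within each of the 9 libraries Nfkbia was above Relb. Rel had the ninth level at each stage and Map3k8 the lowest, and Map3k8 averaged 3.77 ± 1.78 TPM in Healthy, 14.0 ± 2.89 TPM in PanIN and 13.0 ± 5.35 TPM in Tumor. The 6 genes between differed less. In Tumor they ran from Nfkb2 (57.8 ± 15.2 TPM) through Nfkbib (50.5 ± 5.99 TPM), Nfkb1 (49.4 ± 9.6 TPM), Nfkbie (30.8 ± 8.66 TPM) and Rela (30.2 ± 5.71 TPM) to Tnfaip3 (24.0 ± 10.2 TPM), each neighbour within the spread of the next except between Nfkb1 and Nfkbie, whose intervals of 1 SD did not meet. Nfkb1 had the third level in Healthy and PanIN and the fifth in Tumor.

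**Figure D2:**
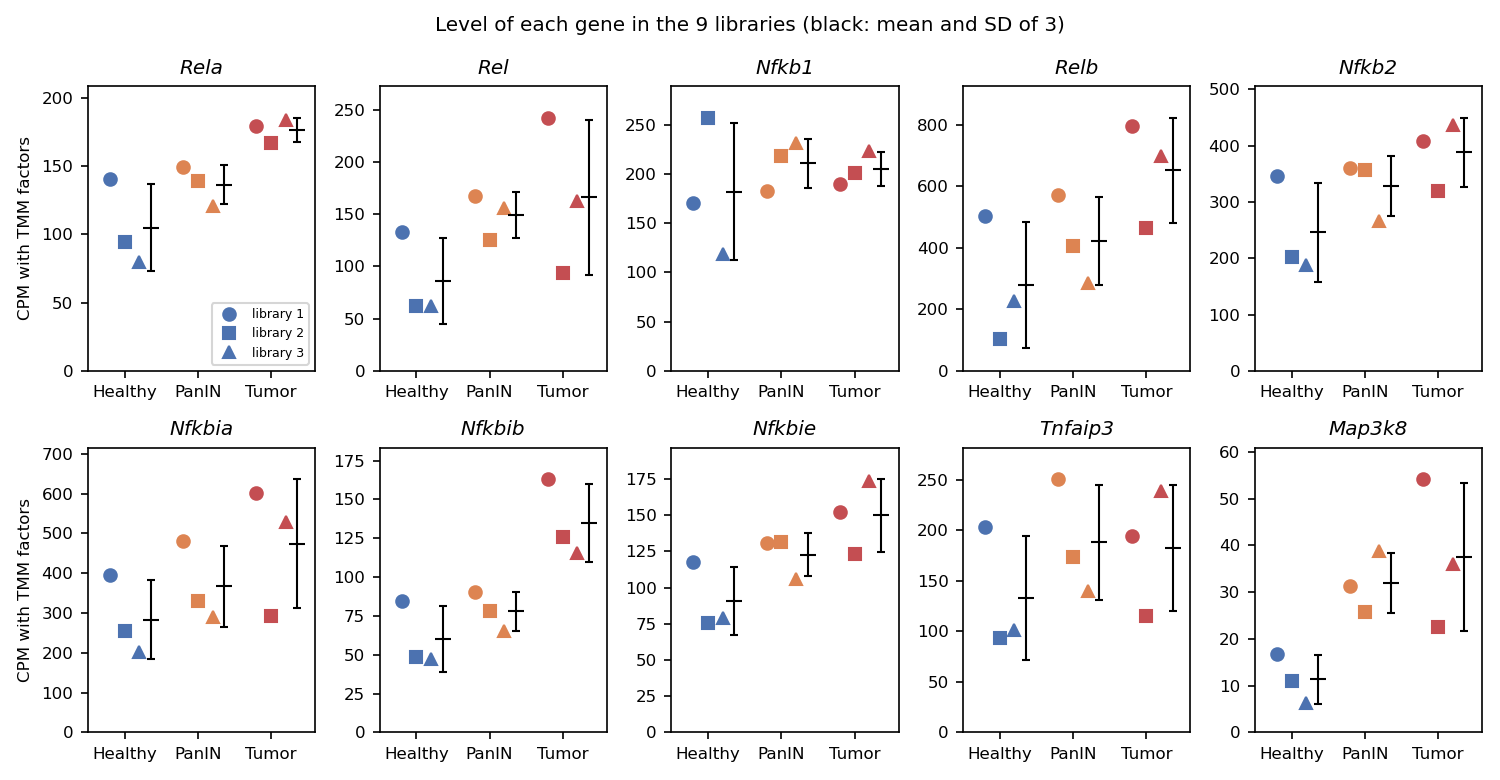
CPM with TMM factors (y axis, from 0) of each of the 10 NF-kB genes in the 9 libraries, grouped by stage (x axis), with marker shape giving the library number within its stage and black bars the mean and SD of 3. Rela, Nfkbib, Nfkbie and Map3k8 have their 3 Tumor points above their 3 Healthy points, and the Healthy points of Relb spread from 103 to 505 CPM.

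Among the canonical subunits, Rela, the main activating partner, had the tightest Tumor values of the family in CPM. Rela stood at 141, 94.3 and 79.7 CPM in Healthy 1, 2 and 3, at 149, 139 and 121 CPM in PanIN 1, 2 and 3, and at 179, 167 and 184 CPM in Tumor 1, 2 and 3. In CPM, each Tumor library was above each PanIN and Healthy library, while PanIN 3 was below Healthy 1. In TPM, Tumor 2 (26.1) lay below PanIN 1, 2 and 3 (28.9, 29.7 and 27.5). Each Tumor library was still above each Healthy library in TPM. Rela averaged 177 ± 8.85 CPM in Tumor and 105 ± 31.8 CPM in Healthy, a log2 fold change of 0.75 ± 0.24 (SE) with an unadjusted p of 0.00865 and an adjusted p of 0.168 by edgeR's quasi-likelihood test, Benjamini-Hochberg adjusted. The DESeq2 alternative gave Rela an adjusted p of 0.0475, and the other alternatives did not pass. In Tumor against PanIN the Rela value was 0.37 ± 0.24 on the log2 scale, with an unadjusted p of 0.144 by edgeR.

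Rel, the c-Rel subunit that dendritic cells use for the genes of interleukin-12, had no separation of the stages in CPM. In TPM, each PanIN library lay above each Healthy library, and Tumor overlapped both. Its levels were 133, 61.8 and 62.6 CPM in Healthy 1, 2 and 3, 168, 125 and 156 CPM in PanIN 1, 2 and 3, and 243, 94.1 and 163 CPM in Tumor 1, 2 and 3. Tumor 1 was highest of the 9 and Tumor 2 lay below Healthy 1 and each PanIN library. The log2 fold change of Rel was 0.95 ± 0.37 in Tumor against Healthy (unadjusted p of 0.0243, adjusted p of 0.214 by edgeR's quasi-likelihood test) and 0.80 ± 0.37 in PanIN against Healthy (unadjusted p of 0.0513).

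Nfkb1, which encodes a precursor processed into the DNA-binding partner of Rela and Rel, had the smallest range of the 10 genes. Its highest library was 2.16 times its lowest. Nfkb1 stood at 170, 257 and 119 CPM in Healthy 1, 2 and 3, at 183, 218 and 231 CPM in PanIN 1, 2 and 3, and at 189.6, 201 and 224 CPM in Tumor 1, 2 and 3. In CPM, both its highest and its lowest library were Healthy, so the other stages lay inside the Healthy range. In TPM they did not. There PanIN 2, PanIN 3 and Tumor 3 (64.8, 67.1 and 60.3) lay above Healthy 2 (51.2), the highest Healthy library. It averaged 205 ± 17.3 CPM in Tumor and 182 ± 69.8 CPM in Healthy. The log2 fold change was 0.17 ± 0.27 in Tumor against Healthy (unadjusted p of 0.551, adjusted p of 0.815 by edgeR's quasi-likelihood test) and 0.21 ± 0.27 in PanIN against Healthy.

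Relb, the partner of the Nfkb2 product in the non-canonical pathway, was the most variable subunit. Relb stood at 505, 103 and 228 CPM in Healthy 1, 2 and 3, at 571, 406 and 287 CPM in PanIN 1, 2 and 3, and at 796, 464 and 698 CPM in Tumor 1, 2 and 3. Tumor 1 and Tumor 3 were above each other library, but Healthy 1 was above Tumor 2, PanIN 2 and PanIN 3. The SD of log2 CPM of Relb was 1.15 within Healthy, 0.50 within PanIN and 0.41 within Tumor. The highest library of Relb was 7.71 times its lowest, a ratio exceeded among the 10 by Map3k8 at 8.56. It averaged 653 ± 171 CPM in Tumor and 279 ± 206 CPM in Healthy. The log2 fold change was 1.23 ± 0.48, with an unadjusted p of 0.0250 and an adjusted p of 0.216 by edgeR's quasi-likelihood test. Without both Healthy 2 and Healthy 3 it was 0.37.

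Nfkb2, whose precursor holds Relb until it is processed, followed Rela and Nfkbie more closely than Relb. Nfkb2 stood at 346, 203 and 188 CPM in Healthy 1, 2 and 3, at 361, 357 and 267 CPM in PanIN 1, 2 and 3, and at 409, 319.7 and 437 CPM in Tumor 1, 2 and 3. The stages overlapped through Healthy 1, which was above Tumor 2 and PanIN 3. The log2 fold change of Nfkb2 was 0.66 ± 0.28 in Tumor against Healthy, with an unadjusted p of 0.0377 and an adjusted p of 0.251 by edgeR's quasi-likelihood test. The likeness of 2 genes over the 9 libraries was measured as the SD of the log2 ratio of their CPM. A value of 0 means the same pattern and the same range, and a difference in range raises it even where the pattern is alike. It was 0.13 between Nfkb2 and Rela, 0.09 between Nfkb2 and Nfkbie and 0.56 between Nfkb2 and Relb.

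The contrast of non-canonical with canonical subunits was taken within each library as the summed TPM of Relb and Nfkb2 over the summed TPM of Rela, Rel and Nfkb1. The ratio was 2.38, 0.68 and 1.77 in Healthy 1, 2 and 3, 2.26, 1.73 and 1.29 in PanIN 1, 2 and 3, and 2.405, 1.72 and 2.26 in Tumor 1, 2 and 3. Non-canonical transcripts exceeded canonical ones in 8 of the 9 libraries, and Healthy 2 was the exception. On the log2 scale the ratio averaged 0.50 ± 0.95 in Healthy, 0.78 ± 0.41 in PanIN and 1.08 ± 0.26 in Tumor. The Tumor mean was 0.57 above the Healthy mean and 0.30 above the PanIN mean, and the PanIN mean was 0.27 above the Healthy mean. Without Healthy 2 the Tumor mean was 0.039 above the Healthy mean and the PanIN difference turned to -0.26, and without Healthy 1 these were 0.95 and 0.65. With 1 other library left out, Tumor against Healthy ran from 0.48 to 0.73 and PanIN against Healthy from 0.073 (without PanIN 1) to 0.48 (without PanIN 3). Tumor against PanIN ran from 0.094 without PanIN 3 to 0.50 without PanIN 1. Each of these differences was smaller than the Healthy SD, and the ranges of the stages overlapped. Tumor 1, at 1.27 on the log2 scale, stood beside Healthy 1 at 1.25, and Tumor 2, at 0.78, stood below Healthy 3 at 0.82.

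Relb and Nfkb1 ran furthest apart. Relb TPM was 3.23, 0.40 and 1.99 times that of Nfkb1 in Healthy 1, 2 and 3, 3.07, 1.87 and 1.37 times in PanIN 1, 2 and 3, and 3.67, 2.01 and 2.97 times in Tumor 1, 2 and 3. In Healthy 2, Relb was at its lowest CPM and Nfkb1 at its highest CPM, though Nfkb1 TPM was highest in PanIN 3. The SD of the log2 ratio between Relb and Nfkb1 was 1.01, the largest of any pair among the 10 genes. The summed TPM of the canonical subunits ran from 44.9 to 112 over the 9 libraries and that of the non-canonical subunits from 47.5 to 253.

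**Figure D3:**
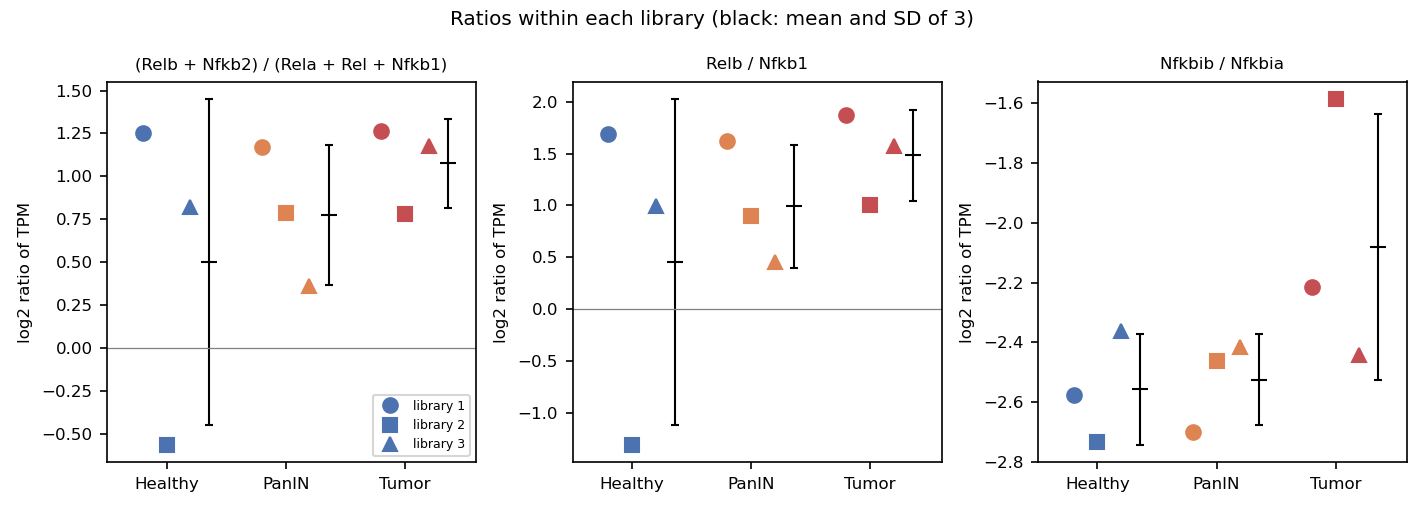
Log2 ratios of TPM (y axis) within each library by stage (x axis) for the summed non-canonical over the summed canonical subunits, for Relb over Nfkb1 and for Nfkbib over Nfkbia, with black bars for the mean and SD of 3. Healthy 2 lies lowest in the first ratio at -0.56 and in the second at -1.31, and the stages overlap in each panel.

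Relb had the same order of the 9 libraries as Ccr7, from lowest to highest: Healthy 2, Healthy 3, PanIN 3, PanIN 2, Tumor 2, Healthy 1, PanIN 1, Tumor 3 and Tumor 1. Of the 24133 genes tested, 16 (0.0663%) other than Ccr7 had this order, and Relb was the 1 gene of the 10. Nfkbia came near to it, with Healthy 2 and Healthy 3 exchanged, and PanIN 2 and Tumor 2 exchanged. The SD of the log2 ratio to Ccr7 was 0.74 for Relb, the smallest of the 10. The same measure was smaller between Relb and Nfkbib (0.49), Rel (0.52) or Nfkb2 (0.56). As it also rises with a difference in range, it does not rank these genes against Ccr7 by pattern alone. Ccr7 stood at 1265, 57.2 and 419 CPM in Healthy 1, 2 and 3, at 1518, 969.9 and 666 CPM in PanIN 1, 2 and 3, and at 2602, 1097 and 1584 CPM in Tumor 1, 2 and 3. Its range was wider than that of Relb, with an SD of log2 CPM over the 9 libraries of 1.61 for Ccr7 against 0.92 for Relb. Nfkb1 ran otherwise: its highest library in CPM was Healthy 2, where Ccr7 was lowest and Xcr1 was highest at 1081 CPM. The summed level of 7 mature dendritic cell markers, Relb left out, ran from 382 to 8089 CPM in Healthy, from 3110.4 to 9049 CPM in PanIN and from 7527 to 14626 CPM in Tumor. The summed level of 9 cDC1 markers ran from 3979 to 14569.7 CPM in Healthy, from 4932 to 10477 CPM in PanIN and from 4178 to 8297 CPM in Tumor. The mature markers moved with Relb across libraries, and their part in the Relb result was not tested.

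**Figure D4:**
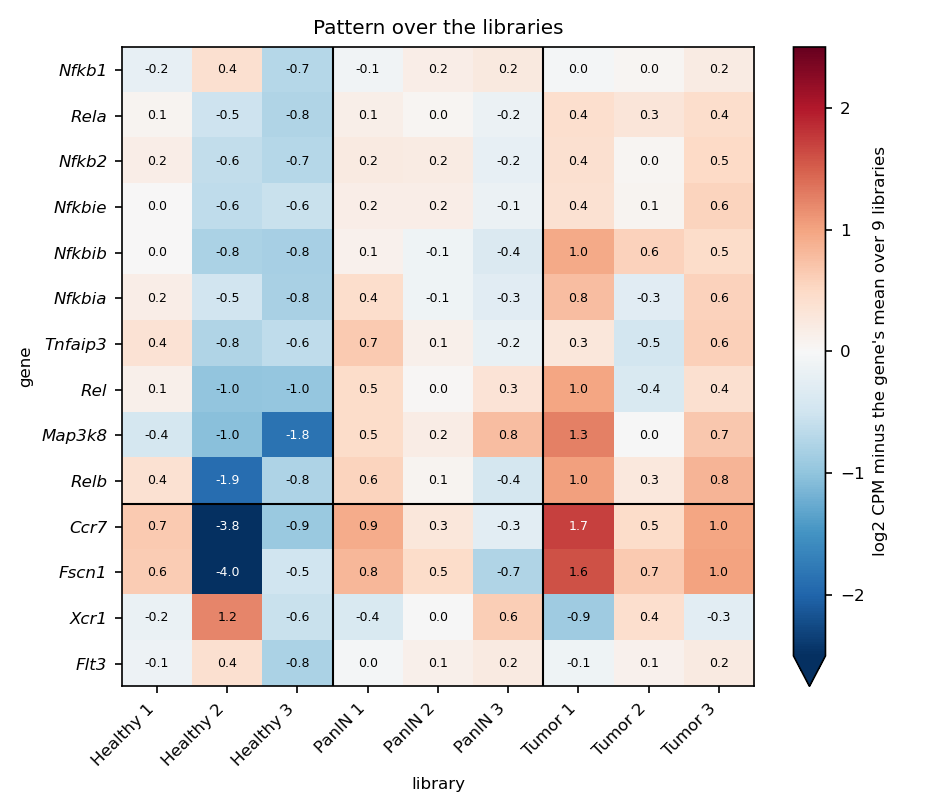
Log2 CPM minus the mean of each gene over the 9 libraries (colour, with the value in each cell) for the 10 NF-kB genes and, below the line, Ccr7, Fscn1, Xcr1 and Flt3 (y axis) in each library (x axis). The lowest values lie beyond the lower end of the colour scale and take its last colour. Relb is lowest in Healthy 2, as are Ccr7 and Fscn1, while Nfkb1, Xcr1 and Flt3 are highest there.

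The genes nearest to Relb and to Nfkb1 in pattern were taken by the smallest SD of the log2 ratio. The search covered 9377 protein-coding genes of at least 3 mean log2 CPM. Likeness of these genes to Relb or Nfkb1, in library order and in fold change, follows from this choice. For Relb they were Foxp4 (SD of 0.04), Laptm4b (0.12), Rftn1 (0.12), Arl5c (0.16) and Il15 (0.16), a cytokine that supports natural killer and memory T cells. For Nfkb1 they were Fmnl1 (0.05), Limd1 (0.05), Tm9sf1 (0.05), Flt3 (0.06), the growth factor receptor on which dendritic cells depend, and Dtx2 (0.06). Foxp4 stood at 154, 33.6 and 73.3 CPM in Healthy 1, 2 and 3, at 189, 136 and 95.9 CPM in PanIN 1, 2 and 3, and at 264, 152 and 236 CPM in Tumor 1, 2 and 3. Like Relb, it was lowest in Healthy 2 and highest in Tumor 1. The fitted log2 fold change in Tumor against Healthy was 1.32 for Foxp4 and 0.17 for Flt3, against 1.23 for Relb and 0.17 for Nfkb1.

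The 3 inhibitors bind NF-kB pairs in the cytoplasm, and differed in how far they separated the stages. Nfkbib, which encodes IkB beta, the inhibitor known for slow turnover, separated Tumor from both other stages. It stood at 84.7, 48.6 and 47.1 CPM in Healthy 1, 2 and 3, at 90.5, 77.9 and 65.3 CPM in PanIN 1, 2 and 3, and at 163, 126 and 115 CPM in Tumor 1, 2 and 3. The lowest Tumor library lay above the highest PanIN and the highest Healthy library. Nfkbib averaged 135 ± 25.1 CPM in Tumor and 60.2 ± 21.3 CPM in Healthy, a 2.24-fold ratio with a log2 fold change of 1.16 ± 0.27. The unadjusted p was 0.00100 and the adjusted p 0.168 by edgeR's quasi-likelihood test, Benjamini-Hochberg adjusted. Against PanIN, at 77.9 ± 12.6 CPM, the log2 fold change of Tumor was 0.79 ± 0.27, with an unadjusted p of 0.0122 and an adjusted p near 1. The Tumor against Healthy difference passed the adjusted threshold with DESeq2 (adjusted p of 0.00803), with no filter on low counts (0.0221) and without Healthy 2 (0.0403), and over all alternatives its adjusted p ran from 0.008 to 0.456.

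Nfkbia, which encodes IkB alpha, the fast-restored inhibitor, had overlapping stages. Its levels were 395, 254 and 202 CPM in Healthy 1, 2 and 3, 482, 331 and 289.6 CPM in PanIN 1, 2 and 3, and 602, 291 and 529 CPM in Tumor 1, 2 and 3. Tumor 1 and Tumor 3 were the highest of the 9, and Tumor 2 was below Healthy 1. The log2 fold change of Nfkbia in Tumor against Healthy was 0.74 ± 0.34, with an unadjusted p of 0.0518 and an adjusted p of 0.285 by edgeR's quasi-likelihood test. Nfkbib was measured at a fraction of the Nfkbia level per length, between 0.15 and 0.33 of its TPM. The log2 ratio of Nfkbib to Nfkbia TPM was -2.21, -1.59 and -2.44 in Tumor 1, 2 and 3, within or above the range from -2.73 to -2.36 in Healthy, and Tumor 2 stood highest.

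Nfkbie, which encodes IkB epsilon, separated Tumor from Healthy by a narrow gap in CPM. Nfkbie stood at 118, 75.4 and 79.3 CPM in Healthy 1, 2 and 3, at 131, 132 and 106 CPM in PanIN 1, 2 and 3, and at 153, 124 and 174 CPM in Tumor 1, 2 and 3. In CPM, Tumor 2 was above Healthy 1 but below PanIN 1 and PanIN 2. In TPM, Tumor 2 (23.7) lay below Healthy 1 (25.5), so the 2 stages overlapped on that scale. The average was 149.9 ± 25.1 CPM in Tumor and 90.8 ± 23.4 CPM in Healthy, with a log2 fold change of 0.72 ± 0.24, an unadjusted p of 0.0110 and an adjusted p of 0.170 by edgeR's quasi-likelihood test.

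Of the regulators, Map3k8, the kinase that links Toll-like and TNF receptors to ERK signalling and is held by the Nfkb1 precursor, had the largest fold change of the 10 genes and the lowest level. Map3k8 stood at 16.7, 11.0 and 6.33 CPM in Healthy 1, 2 and 3, at 31.3, 25.9 and 38.7 CPM in PanIN 1, 2 and 3, and at 54.2, 22.6 and 36.04 CPM in Tumor 1, 2 and 3. Each Tumor and each PanIN library was above each Healthy library, and in CPM the Tumor range contained the PanIN range. This holds for the sum of all its transcripts. For Map3k8-201, its 1 protein-coding transcript, Tumor 2 (2.312 TPM) lay below Healthy 1 (3.255 TPM). In that transcript each PanIN library (7.455, 6.107 and 8.48 TPM) was above each Healthy and each Tumor library. It averaged 37.6 ± 15.9 CPM in Tumor and 11.4 ± 5.2 CPM in Healthy, a 3.32-fold ratio with a log2 fold change of 1.73 ± 0.39. The unadjusted p was 0.000725 and the adjusted p 0.168 by edgeR's quasi-likelihood test. PanIN averaged 32.0 ± 6.47 CPM, a log2 fold change of 1.497 ± 0.38 against Healthy with an unadjusted p of 0.00206 and an adjusted p of 0.341. Between Tumor and PanIN the value was 0.23 ± 0.38, with an unadjusted p of 0.544.

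Alternatives gave adjusted p for Map3k8 from 0.003 to 0.425 in Tumor against Healthy, and the log2 fold change from 1.17 to 2.12. It passed with DESeq2 in Tumor against Healthy (adjusted p of 0.00301) and in PanIN against Healthy (0.0363), with no filter on low counts (0.00571 and 0.0284), and in Tumor against Healthy without Healthy 2 (0.0361). Within the 3 libraries that share a title code, Map3k8 was 1.69 higher on the log2 scale in Tumor 1 than in Healthy 1, and in the other 6 libraries the Tumor mean was 1.77 above the Healthy mean.

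Tnfaip3, a ubiquitin-editing enzyme that shuts off signals to IKK, had its highest library in PanIN. Tnfaip3 stood at 203, 93.8 and 102 CPM in Healthy 1, 2 and 3, at 251, 174 and 139.7 CPM in PanIN 1, 2 and 3, and at 194, 115 and 239 CPM in Tumor 1, 2 and 3. PanIN 1 was highest of the 9 and Healthy 1 was above Tumor 1 and Tumor 2. The log2 fold change was 0.46 ± 0.36 in Tumor against Healthy (unadjusted p of 0.227, adjusted p of 0.558 by edgeR's quasi-likelihood test), 0.50 ± 0.36 in PanIN against Healthy (unadjusted p of 0.191) and -0.04 in Tumor against PanIN. Its log2 difference between Tumor 1 and Healthy 1 was -0.07, while in the other 6 libraries the Tumor mean was 0.77 above the Healthy mean.

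The Healthy libraries differed in the same direction for most of the 10 genes. In 9 of the 10 genes Healthy 1 was above both other Healthy libraries, where 20.6% of all genes showed this, and Nfkb1 was the exception. In CPM, the lowest of the 9 libraries was Healthy 3 for 6 genes and Healthy 2 for the other 4. The highest was a Tumor library for 8 genes, the exceptions being Nfkb1 and Tnfaip3. Tumor 2 was the lowest Tumor library for 8 genes, all but Nfkb1 and Nfkbib. For these counts of lowest and highest libraries the share of all genes was not taken, so they cannot be called particular to the NF-kB genes. A title code is shared by Healthy 1, PanIN 1 and Tumor 1, whose meaning the labels do not give. Within it, Tumor 1 exceeded Healthy 1 on the log2 scale by 0.94 for Nfkbib, 0.86 for Rel, 0.66 for Relb, 0.61 for Nfkbia, 0.37 for Nfkbie, 0.35 for Rela, 0.24 for Nfkb2 and 0.16 for Nfkb1. The differences of means in the other 6 libraries were 1.33 for Nfkbib, 0.99 for Rel, 1.89 for Relb, 0.79 for Nfkbia, 0.92 for Nfkbie, 1.01 for Rela, 0.93 for Nfkb2 and 0.28 for Nfkb1. The difference was thus smaller within the shared code for each of these 8 genes, and for Relb by the most.

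Within the genes, the split among annotated transcripts was also compared, as a share of the TPM of the gene. Of 25 transcripts with a mean share of at least 5%, from the 8 genes with several transcripts, 4 (Nfkb1-207, Nfkb1-206, Tnfaip3-202 and Tnfaip3-201) had shares that did not overlap between Tumor and Healthy, where 18.3% of 47229 such transcripts of all genes did. For PanIN against Healthy 2 (Nfkbie-201 and Nfkbie-202) did not overlap, where 12.1% of all did, and for Tumor against PanIN 7 did not, where 15.8% did. In both comparisons with Healthy, the share among these 25 was thus near or below that of all transcripts. The transcripts named next were singled out after their values were seen, and a model splits reads among overlapping transcripts, so the shares carry that uncertainty. In Nfkb1 the transcript Nfkb1-207, annotated as a target of nonsense-mediated decay, took 45.3%, 43.6% and 42.3% of the TPM in Tumor 1, 2 and 3, against 25.0%, 23.3% and 27.0% in Healthy 1, 2 and 3. The protein-coding Nfkb1-206 took 13.3%, 12.4% and 19.7% in Tumor 1, 2 and 3, against 28.8%, 34.3% and 30.8% in Healthy 1, 2 and 3. PanIN held 35.2%, 24.1% and 27.6% of Nfkb1-207, and 24.6%, 30.04% and 28.7% of Nfkb1-206. The summed share of protein-coding Nfkb1 transcripts was 59.6%, 62.3% and 59.7% in Healthy 1, 2 and 3, 53.2%, 53.7% and 51.8% in PanIN 1, 2 and 3, and 43.9%, 41.7% and 46.3% in Tumor 1, 2 and 3, with no overlap between any stages. Of 9346 genes whose mean protein-coding share lay between 5% and 95%, 20.7% did not overlap when Tumor was set against Healthy, 18.2% when Tumor was set against PanIN and 15.0% between PanIN and Healthy. In 1.87% none of the 3 comparisons overlapped. Of the 6 NF-kB genes in that range (Nfkb1, Relb, Nfkbia, Nfkbie, Tnfaip3 and Map3k8), Nfkb1 alone did not overlap in Tumor against Healthy, and in all 3. In Tumor against PanIN 4 of the 6 did not overlap (Relb, Tnfaip3, Map3k8 and Nfkb1), and in PanIN against Healthy 3 did not (Tnfaip3, Nfkbie and Nfkb1).

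**Figure D5:**
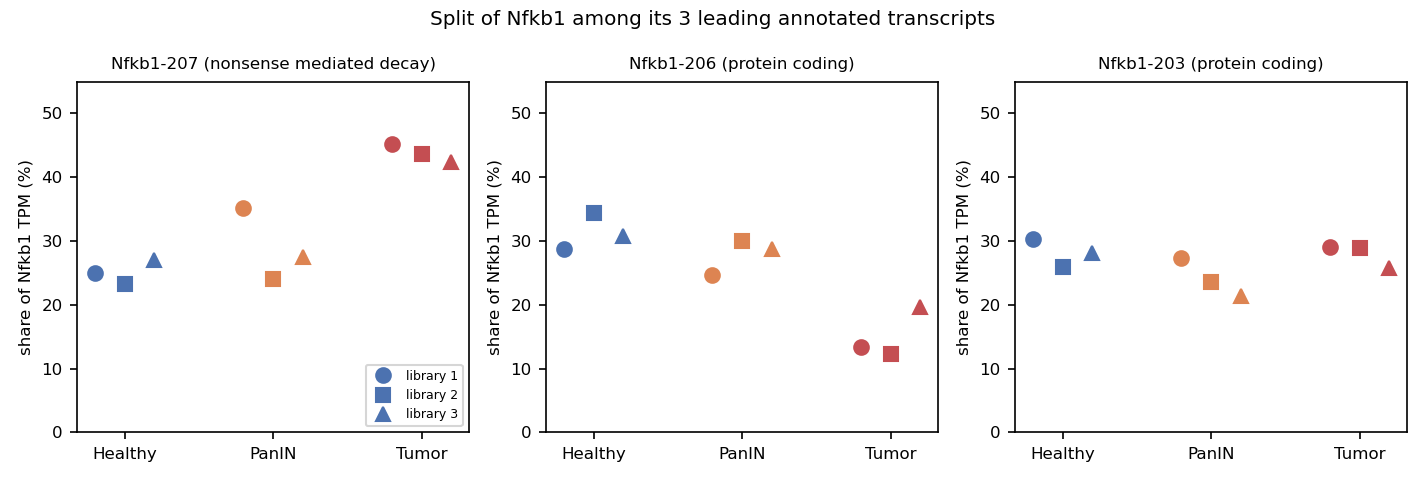
Share of Nfkb1 TPM (y axis, %) taken by each of its 3 leading annotated transcripts in the 9 libraries, grouped by stage (x axis), with marker shape giving the library number. The 3 Tumor points of Nfkb1-207 lie between 42.3% and 45.3%, above the other 6, and those of Nfkb1-206 lie between 12.4% and 19.7%, below the other 6.

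Map3k8 also divided its reads differently between stages. The protein-coding Map3k8-201 took 36.9%, 33.5% and 23.0% of its TPM in Tumor 1, 2 and 3, against 59.6%, 49.9% and 48.8% in PanIN 1, 2 and 3. The decay-annotated Map3k8-205 took 35.1%, 42.1% and 22.2% in Tumor 1, 2 and 3, against 0%, 0% and 6.9% in PanIN 1, 2 and 3. Healthy held 56.1%, 68.4% and 17.2% for Map3k8-201 and 6.1%, 0% and 31.6% for Map3k8-205, which overlapped Tumor in both, at low counts of this gene. The main Tnfaip3 transcript, Tnfaip3-202, took 88.9% ± 2.6 in Tumor, 74.8% ± 6.2 in PanIN and 72.9% ± 15.3 in Healthy. Rela and Rel had 1 transcript each in the deposited table.

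The rest of the pathway was read from 8 lists of other NF-kB genes, 81 genes in all. In Tumor against Healthy, 36 of the 81 (44.4%) had an unadjusted p under 0.05 in the higher direction and 0 in the lower, where 6.82% and 11.0% of all genes did, and the median log2 fold change was 0.55. In PanIN against Healthy 13 (16.05%) were higher and 0 lower, where 4.82% and 5.65% of all genes were, with a median of 0.39. In Tumor against PanIN 5 (6.17%) were higher and 1 lower, where 2.02% and 2.52% of all genes were, with a median of 0.17. None of the 81 passed the adjusted threshold by edgeR in any comparison. DESeq2 passed 18 of them, all higher, when Tumor was set against Healthy, where 583 of all 24133 genes passed as higher and 1024 as lower. When Tumor was set against PanIN it passed 1, which was higher, where 11 of all genes passed as higher and 19 as lower. Between PanIN and Healthy it passed 0, where 172 of all genes passed as higher and 24 as lower. Genes beyond the 2 with the smallest p of each list are named below because they make up a count, after their values were seen. Without both Healthy 2 and Healthy 3 the 36 became 18, and without Healthy 3 or Tumor 1 alone they became 19.

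Upstream, the IKK complex had 1 of 3 genes at an unadjusted p under 0.05 in Tumor against Healthy. This was Ikbkb, its catalytic subunit of the canonical arm, with a log2 fold change of 0.97 ± 0.25 (unadjusted p of 0.00235, adjusted p of 0.168 by edgeR's quasi-likelihood test). Ikbkb stood at 244, 169 and 249 CPM in Tumor 1, 2 and 3, against 144, 108 and 86.6 CPM in Healthy 1, 2 and 3, with no overlap. Chuk, the kinase subunit used by the non-canonical arm, had 0.42 ± 0.31 (unadjusted p of 0.206). In PanIN, Ikbkb stood at 180.3, 209 and 204 CPM, above each Healthy library. Among 16 canonical adaptors and kinases 5 reached an unadjusted p under 0.05 (Malt1, Card9, Traf6, Bcl10 and Irak1), and the smallest p belonged to Malt1, a protease of the signalling complex below antigen and C-type lectin receptors (0.80 ± 0.22, unadjusted p of 0.00288), and Card9, its adaptor in myeloid cells (0.97 ± 0.27, unadjusted p of 0.00316).

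The non-canonical kinase Map3k14 had a log2 fold change of 1.15 ± 0.31 in Tumor against Healthy (unadjusted p of 0.00265, adjusted p of 0.168 by edgeR's quasi-likelihood test). Map3k14 stood at 209, 115 and 165 CPM in Tumor 1, 2 and 3, against 105, 68.9 and 46.9 CPM in Healthy 1, 2 and 3, with no overlap. Among the genes listed with Map3k14, Nlrp12 was near the floor, at no more than 0.43 CPM in any library. Of these 7 genes, Map3k14 included, 3 reached an unadjusted p under 0.05, the others being Nlrp12 and Birc2, a ubiquitin ligase that keeps the Map3k14 kinase low, with 1.10 ± 0.39 (unadjusted p of 0.0145). Of 9 receptors 3 did so, Tnfrsf4 and, with the smaller p, Cd40 (1.20 ± 0.31, unadjusted p of 0.00226) and Tnfrsf11a, which encodes RANK (1.12 ± 0.37, unadjusted p of 0.00986). Cd40 stood at 263, 180 and 235 CPM in Tumor 1, 2 and 3, against 135, 62.4 and 97.4 CPM in Healthy 1, 2 and 3. Both arms of the pathway thus had genes on this side of the unadjusted threshold, and no difference between the arms was tested.

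The nuclear partners and the brakes differed in how many genes had a positive value. All 3 atypical IkB genes (Bcl3, Nfkbid and Nfkbiz), which act in the nucleus, reached an unadjusted p under 0.05 in Tumor against Healthy, with Bcl3 at 1.33 ± 0.30 (unadjusted p of 0.000773, adjusted p of 0.168) and Nfkbid at 1.38 ± 0.47 (unadjusted p of 0.0122) by edgeR's quasi-likelihood test. Bcl3 stood at 67.7, 62.1 and 80.2 CPM in Tumor 1, 2 and 3, against 37.7, 15.8 and 29.8 CPM in Healthy 1, 2 and 3. Of 11 genes of the linear ubiquitin ligase and its brakes 8 had a positive value, and Cyld, Itch and Rnf11 a negative one. In this list 4 reached an unadjusted p under 0.05, Tnip1, Tnip3 and, with the smaller p, Tnip2, an adaptor that binds linear ubiquitin chains and Map3k8 (1.07 ± 0.26, unadjusted p of 0.00144), and Sharpin, a ligase subunit (0.83 ± 0.23, unadjusted p of 0.00304). Of 10 genes of the Map3k8 and ERK arm 4 did so, Map2k1, Dusp2 and, with the smaller p, Mapk3, an ERK kinase (0.65 ± 0.26, unadjusted p of 0.0269), and Dusp5, an ERK phosphatase (1.23 ± 0.51, unadjusted p of 0.0332).

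Of 22 target genes, 13 had an unadjusted p under 0.05 in the higher direction when Tumor was set against Healthy. PanIN against Healthy gave 2 such genes, Irf1 and Traf1, and Tumor against PanIN gave 5, which were Il1b, Ccl17, Cd83, Cxcl16 and Bcl2a1d. The 11 other pathway genes at this level in PanIN were upstream or regulatory: Chuk, Ikbkb, Nfkbiz, Bcl3, Card9, Malt1, Sharpin, Rnf31, Tnip2, Map3k14 and, near the floor in CPM, Nlrp12. The smallest p belonged to Il1b, an inflammatory cytokine, and Ccl17, a chemokine that draws T cells. Il1b stood at 69.5, 64.0 and 51.4 CPM in Tumor 1, 2 and 3, against 28.4, 14.7 and 13.7 CPM in Healthy 1, 2 and 3. Its log2 fold change was 1.70 ± 0.30 (unadjusted p of 9.36e-05, adjusted p of 0.123 by edgeR's quasi-likelihood test), and 1.12 in Tumor against PanIN (unadjusted p of 0.00244). Ccl17 stood at 103, 25.9 and 54.4 CPM in Tumor 1, 2 and 3, against 10.1, 5.96 and 16.3 CPM in Healthy 1, 2 and 3, a log2 fold change of 2.498 ± 0.48 (unadjusted p of 0.000213, adjusted p of 0.142). In both genes each Tumor library was above each Healthy library.

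Markers of other cell types were low beside those of cDC1, and were not at 0 in every library for any gene. Summed B cell markers were 243 CPM in PanIN 2 and at most 67.0 CPM in the other libraries. Summed plasma cell markers were highest in Tumor 1 at 333 CPM, and summed epithelial and acinar markers were 86.5 CPM there against at most 18 CPM elsewhere. Tumor 1 was also the highest library for Relb, Rel, Nfkbia, Nfkbib and Map3k8. Without Tumor 1, 4 of the 10 genes reached an unadjusted p under 0.05 in Tumor against Healthy. Summed macrophage and monocyte markers ran from 24.3 to 55.6 CPM in Tumor and from 43.4 to 62.6 CPM in Healthy. T cell markers ran from 41.0 to 332 CPM in Tumor and from 56.7 to 228 CPM in Healthy. They were highest in the libraries of the shared title code: 228 CPM in Healthy 1, 202 CPM in PanIN 1 and 332 CPM in Tumor 1. The next library was PanIN 2 at 133 CPM. Summed natural killer cell markers were also highest there, at 34.4, 40.2 and 31.9 CPM in Healthy 1, PanIN 1 and Tumor 1. Tumor 2 came next at 19.96 CPM. The part of these cells in the NF-kB values was not tested.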

How the data were processed

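RNA was measured in 9 libraries, 3 per stage, with a stranded kit per the labels' protocols. For each transcript the authors deposited estimated counts without normalization and TPM. The submitters' processing notes name Salmon and mm10, while names attached to the deposited tables mention sailfish, and the tool is thus uncertain. Its version, its settings and any use of strand stay unknown, being not given in the sources used here. By identifier, 136176 of 136288 transcripts were matched to GENCODE M21 (GRCm38) and 112 were left out. Transcript counts were added up for 53458 genes, then rounded.

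The filter filterByExpr (minimum count 10, minimum total 15) kept 24133 genes. In edgeR 4.0.16 (R 4.3.3), TMM factors were used and 1 quasi-likelihood model was fitted over all 9 libraries with stage as its term, with p-values adjusted by Benjamini-Hochberg over all genes tested and a threshold of 0.05. CPM are with TMM factors, and SE are from the fit. The biological coefficient of variation was 56.5%. The fit was tested on simulated data. Depth ran from 32150281 to 68934430 counts, so for the 10 genes counting error was small beside the spread between libraries. Levels are compared between genes in TPM only.

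The 10 genes, the pathway and marker lists and the tests were chosen with earlier results of these data known. From each pathway list the 2 genes with the smallest unadjusted p for Tumor against Healthy were named, and for Relb and Nfkb1 the 5 nearest genes. Alternatives were DESeq2 1.42.0, RLE factors, no filter, a term for the shared title code, limma-trend (limma 3.58.1) on log2(TPM + 1) and log2(TPM + 0.1), the 6 libraries compared alone, each library left out, and Healthy 2 with Healthy 3 left out. Counts of pathway genes under these alternatives were chosen after seeing the data. The share of all genes at an unadjusted p under 0.05 was taken in the main edgeR fit alone. Tables and figures used Python 3.11.15, pandas 2.3.3 and matplotlib 3.10.9.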

Additional observations from a re-analysis of the deposited data

How the results depend on the processing

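The members that passed after adjustment did so with DESeq2, with no filter or without Healthy 2, as given with each gene. Genes passing in Tumor against Healthy numbered 6 by edgeR, 1041 with no filter, 1607 with DESeq2 (583 higher and 1024 lower) and 2 to 2177 with 1 library left out, the most without Healthy 2. In PanIN against Healthy they were 0 by edgeR, 123 with no filter, 196 with DESeq2, 3 without both Healthy 2 and Healthy 3, 4 on log2(TPM + 1), 3 on log2(TPM + 0.1) and 0 to 6 with 1 library left out. In Tumor against PanIN they were 3 by edgeR, 33 with no filter, 30 with DESeq2, 1 with the title code term, 0 in the 6 libraries alone and 1 to 7, and for any difference 5 by edgeR, 855 with no filter, 1043 with DESeq2, 3 with the title code term, 8 on log2(TPM + 1) and 0 to 1360.

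Members at an unadjusted p under 0.05 in the higher direction were 7 in Tumor against Healthy, 2 without both Healthy 2 and Healthy 3 and 4 to 9 with 1 library left out. In PanIN against Healthy they were 1, then 2 with no filter, with DESeq2, with the title code term and in the 6 libraries alone, 0 without both Healthy 2 and Healthy 3, 7 and 8 on the TPM scales and 1 to 8 with 1 library left out. In Tumor against PanIN they were 1, 3 without both Healthy 2 and Healthy 3 and in the 6 libraries alone, 0 on the TPM scales and 0 to 1 with 1 library left out.

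Leaving out both Healthy 2 and Healthy 3 leaves Healthy 1 alone, which is then assumed to vary like the other stages. Some signs turned. Without both Healthy 2 and Healthy 3, Tnfaip3 was -0.16 in Tumor against Healthy, and in PanIN against Healthy Rela was -0.046, Relb -0.26, Nfkb2 -0.078, Nfkbia -0.10, Nfkbib -0.12 and Tnfaip3 -0.12. In Tumor against PanIN, Tnfaip3 was 0.014 with the title code term, and log2(TPM + 1) gave -0.27 for Rel, -0.060 for Nfkb2, -0.016 for Nfkbie and -0.17 for Map3k8, and log2(TPM + 0.1) -0.30, -0.061, -0.017 and -0.19. That scale moved the median of all genes to -0.34 in Tumor against PanIN and 0.23 in PanIN against Healthy. With 1 library left out, Nfkb1 ran from -0.036 to 0.50 in Tumor against Healthy, and in Tumor against PanIN Nfkb1 ran from -0.14 to 0.029, Rel from -0.22 to 0.44, Map3k8 from -0.13 to 0.50 and Tnfaip3 from -0.28 to 0.22. The cause was not tested. The log2 ratio of subunits moved by less than the Healthy SD of 0.95 under each alternative, but by more than the PanIN SD of 0.41 without Healthy 2, as given with the ratio. No paired analysis was possible because the labels carry no replicate numbers, apart from the title code that 1 library of each stage shares, which was fitted as a term.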
